A study of Drosophila melanogaster with 12 samples.

Results

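The cuticle and chitin-related genes described here were 78 genes with 82 probes on a spotted cDNA array of Drosophila melanogaster. They were chosen by name alone: every probe was taken whose single annotated gene has a current symbol starting with Cpr and a digit, Lcp, Ccp, Twdl, obst-, Osi and a digit, or Cht and a digit. The array holds 7447 probes with 1 gene and a current symbol, for 6692 genes. The Cpr family had 33 probes for 32 genes, the Twdl family 15 probes for 15 genes, the Osi family 15 probes for 15 genes and the Cht family 12 probes for 9 genes. The obst family had 4 probes, the Ccp family 2 and the Lcp family 1, each for a different gene.

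The insect cuticle is a layered extracellular coat of chitin fibres, proteins and lipids that epidermal cells secrete through their apical face. It covers the outside of the head and also forms the corneal lenses, the bristles and the lining of the foregut and of the air tubes. Cpr, Lcp and Ccp genes encode cuticular proteins that bind chitin through the Rebers and Riddiford consensus, and Twdl (Tweedle) genes encode a separate family of cuticular proteins. The obst (Obstructor) genes encode secreted proteins with chitin-binding domains of the peritrophin type, Osi (Osiris) genes encode an insect-specific family of transmembrane proteins made by cuticle-secreting epithelia, and Cht genes encode chitinases and their relatives in glycosyl hydrolase family 18. Much of the activity of these genes falls around embryonic cuticle formation and the moults, and an adult head lies after the last moult.

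RNA came from heads of unmated Oregon-R males, 3 to 4 days old at the start, in 3 groups of 4 arrays. The treated flies of all 3 groups had first been fed pentylenetetrazole (PTZ), a drug that provokes convulsions, at 8 mg/ml for 7 days. In the ETH day 10 group (PTZ_ETH_d10 in the plots) they were then fed ethosuximide (ETH), a drug used against absence seizures, at 3.48 mg/ml for 3 days, and heads were taken on day 10. In the ETH day 14 group (PTZ_ETH_NF_d14) the same 3 days on ETH were followed by 4 days on normal food, and heads were taken on day 14. In the food day 14 group (PTZ_NF_NF_d14) the flies went from PTZ to normal food for 7 days, with no ETH, and heads were taken on day 14. Untreated flies, a parallel set kept on normal food for as long, supplied the RNA of the second channel. Day 10 and day 14 flies on ETH therefore differ both in age and in the days since the drug, and these cannot be told apart. Each array compares pools of heads, so it gives no level per animal, and in such pools a loss of cells of a type and less RNA per cell cannot be told apart.

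Every value below is a log2 ratio of treated over untreated flies with the median of each array set to 0, so 1 stands for a doubling and 0 for no difference from the array's median probe. Unless stated, values were not centred within the array's 48 print blocks. The block of a probe accounted for 17.2% to 36.6% of the variance between probes on day 10 arrays. On day 14 arrays it accounted for 5.1% to 32%. Treated RNA was labelled with Cy5 for replicates 1 and 2 of a group and with Cy3 for replicates 3 and 4, the dye swaps. The labels do not say whether the deposited ratios of the swaps were already turned. The values here take the deposited ratio as Cy5 over Cy3 and turn the sign of the swaps, and the reading without turning is given for the families, the counts and the leading members. The choice matters most at day 10. Over all probes, after turning, the 4 pairs of day 10 arrays of opposite dye orientation correlated at r = -0.48 to -0.38 across probes, and the pairs of the same orientation at 0.43 and 0.55. Opposite orientations of the day 14 groups correlated between -0.33 and 0.23. Direction is therefore not settled by the labels in any group, and every sign given here rests on this assumption.

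Testing in a group needed values on at least 3 of its 4 arrays, and 59 of the 82 member probes (72.0%) met this at day 10, against 68.6% of all 13824 probes. The ETH day 14 group gave 30 tested members (36.6%), against 37.1% of all probes, and the food day 14 group 42 (51.2%), against 46.2%. The array facts behind this are that 9106 to 10433 probes had a value on a day 10 array and 5077 to 7433 on a day 14 array. Only 7 members (8.5%) had a value on all 12 arrays, against 15.5% of all probes. Of the marker lists that were looked at for the tissue, 7 of 7 probes for eye and neuron genes and 5 of 5 for glial genes had values at day 10, of 17 and 7 genes listed. So did 5 of 5 probes for gut, 5 of 5 for muscle and 6 of 6 for epidermis and oenocytes. Head fat body had 8 of 9 and the male reproductive tract 2 of 3, so having values did not separate the tissues. A ratio shows no level, so the amount of each cell type was not measured. The list for the epidermis and its oenocytes had probes for 3 of 8 genes, Cyp4g15, Desat1 and FASN3. The listed genes grh, sha and svb had none, so the list says little about the cells that make cuticle. Its median ratio was -0.039 at day 10 (4 tested), 0.0020 in the ETH day 14 group (2 tested) and -0.18 in the food day 14 group (3 tested). The glial list had -0.36, -0.057 and -0.012. None of these markers was called, and their part in the results was not tested.

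**Figure D1:**
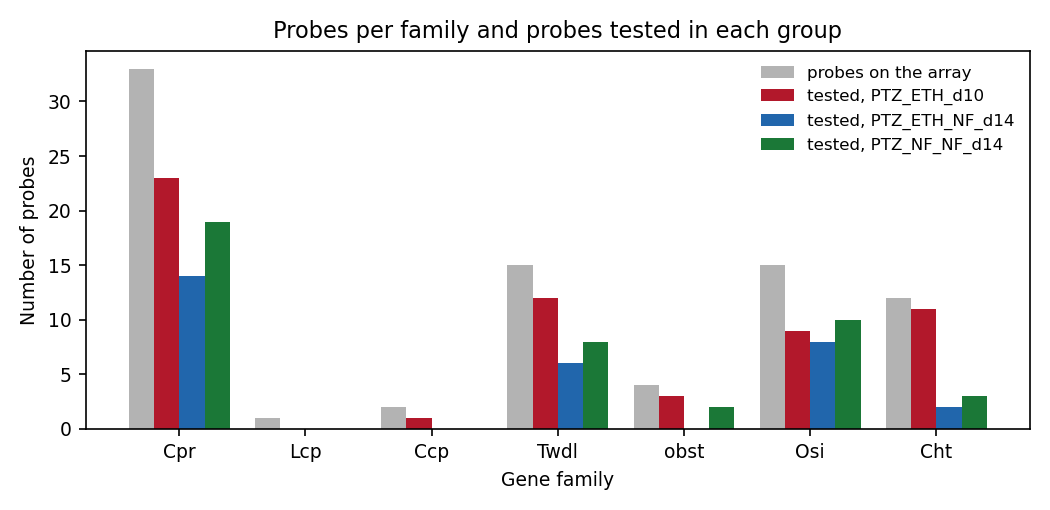
Number of probes (vertical axis) by gene family (horizontal axis): grey bars give the probes on the array and coloured bars those tested in each of the 3 groups. The Cht family goes from 11 of 12 probes tested at day 10 to 2 and 3 at day 14, while the Osi family has 9, 8 and 10 of 15.

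The families differed in how often they could be measured. Chitinases were tested with 11 of 12 probes at day 10 but with 2 in the ETH day 14 group and 3 in the food day 14 group. Osiris probes were tested about equally often in all groups, with 9, 8 and 10 of 15. The Tweedle family gave 12, 6 and 8 of 15 probes and the Cpr family 23, 14 and 19 of 33. In all, 12 member probes were tested in no group: Cpr23B, Cpr65Eb, Cpr65Ec, Cpr67Fa2, Cpr78E, Cpr92F, Lcp65Ac, Ccp84Ab, obst-F, Osi4, Osi12 and 1 of the probes for Cht12. Because a missing value can come from a dim spot, the tested members are not a fair sample of the family. The array also leaves most of the families out: 160 genes of the current annotation match the naming rule and 48.8% of them had a probe, from 6.7% for Lcp to 90.0% for Cht.

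No member passed the threshold in any group. By limma with Benjamini-Hochberg adjustment over all probes tested, at an adjusted p of 0.05, 0 of 59 members were called at day 10, where 0.222% of all probes were (21 of 9479). None was called in the ETH day 14 group (0 of 30 members, 0% of 5135 probes) or in the food day 14 group (0 of 42 members, 0% of 6386 probes). At an unadjusted p under 0.05 there were 3 members at day 10 (5.1%, against 8.34% of all probes), 3 in the ETH day 14 group (10.0%, against 4.4%) and 3 in the food day 14 group (7.1%, against 6.69%). The lowest adjusted p of a member was 0.266, 0.998 and 0.449 in the same order.

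Taken as a whole the members lay close to 0. The median fitted ratio over the tested members was 0.050 at day 10 and 33 of 59 lay above 0, while over all probes the median was 0.019 and 53.7% lay above 0. The ETH day 14 median was 0.055 with 18 of 30 above 0, against 0.0034 and 50.9% for all probes. For the food day 14 group it was 0.049 with 27 of 42 above 0, against -0.0078 and 48.4%. The SE of a single member had a median of 0.15 at day 10, 0.14 in the ETH day 14 group and 0.15 in the food day 14 group. Scatter of the turned values differed more between the groups than the medians did: the SD of a member over the arrays of its group had a median of 0.46 at day 10, 0.27 in the ETH day 14 group and 0.16 in the food day 14 group. This rests on the turning, since members on turned day 10 arrays of opposite dye orientation correlated at r = -0.53 to -0.44. The SD without turning is not given here. Members whose arrays all had the same sign made up 10.2%, 20.0% and 31.0% of those tested, against 11.1%, 16.5% and 25.1% of all probes. Without turning the shares were 45.8%, 16.7% and 11.9%, against 44.4%, 27.3% and 22.1%, so the order of the groups was the reverse.

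**Figure D2:**
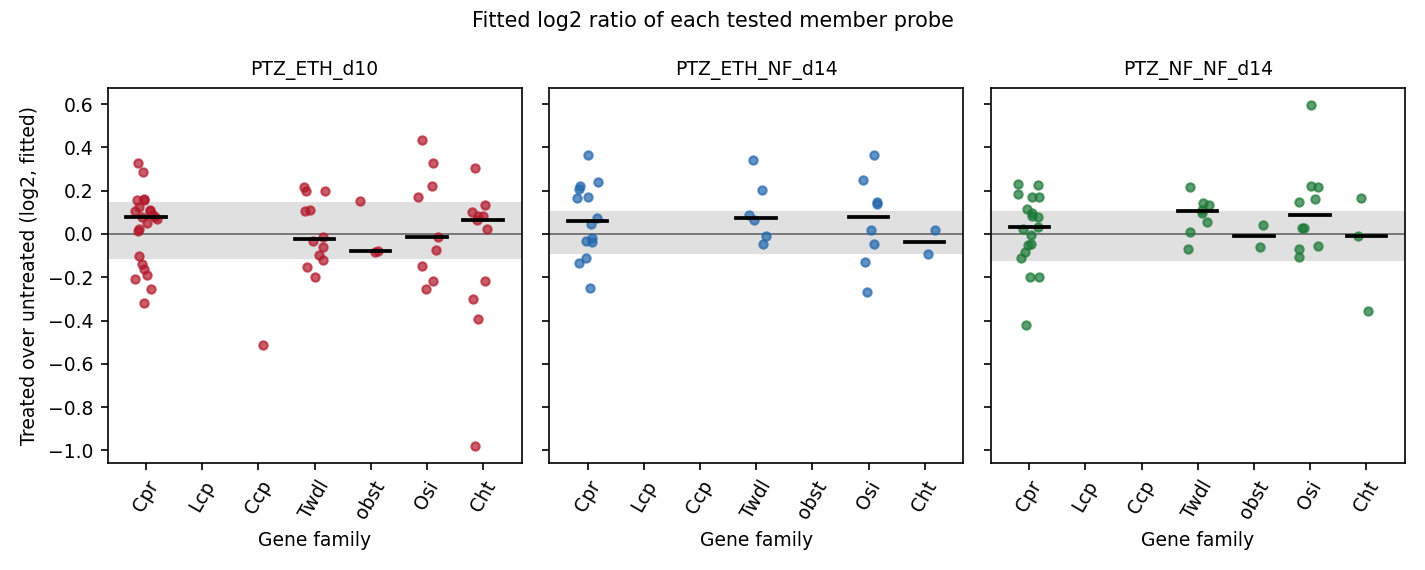
Fitted log2 ratio of treated over untreated flies (vertical axis) for each tested member probe by gene family (horizontal axis) in the 3 groups; the black line is the family median and the grey band runs from the lower to the upper quartile of all tested probes. Most members sit near the band in every group, with Cht8 at -0.98 and Ccp84Ae at -0.51 lowest at day 10 and Osi6 at 0.60 highest in the food day 14 group.

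Among the Cpr genes, whose proteins bind chitin through the Rebers and Riddiford consensus, fitted ratios ranged from -0.32 to 0.33 at day 10, from -0.25 to 0.36 in the ETH day 14 group and from -0.42 to 0.23 in the food day 14 group. Their medians were 0.08, 0.06 and 0.03, and 16 of 23, 8 of 14 and 11 of 19 lay above 0. Without turning the medians were -0.12, 0.079 and -0.0012, with 9 of 23, 9 of 14 and 9 of 19 above 0, so the sign changed at day 10 and in the food day 14 group. Cpr67B was the lowest of them in the food day 14 group, at -0.58, -0.12, -0.39 and -0.59 on the 4 arrays. All 4 arrays lay below 0, with a fitted ratio of -0.42 (SE 0.19, n = 4, limma adjusted p = 0.744). Without turning Cpr67B was at 0.070 (limma adjusted p = 0.950), with 2 of 4 arrays above 0. It had no value on any day 10 array, and in the ETH day 14 group its arrays ran from -0.96 to 0.41, so there the spread covered 0 on both sides. Cpr64Aa was also below 0 on all 4 arrays of the food day 14 group, at -0.36, -0.09, -0.12 and -0.21, with a fitted ratio of -0.20 (SE 0.12, n = 4, limma adjusted p = 0.811).

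Cpr72Ec, which encodes a protein of the corneal lens, had the lowest unadjusted p of the family at day 10. Its values were 0.01 and -0.22 on the arrays with treated RNA in Cy5 and 0.69 and 0.82 on the dye swaps. The orientations did not overlap, and the fitted ratio was 0.33 (SE 0.13, n = 4, limma adjusted p = 0.567). Cpr49Ae had 0.54, 0.23, 0.68 and -0.29 at day 10, with a fitted ratio of 0.29 (SE 0.16). Cpr64Ad stood at 0.69, 0.02 and 0.05 on its 3 arrays of the ETH day 14 group, and a single array carried most of its fitted ratio of 0.36 (SE 0.14, limma adjusted p = 0.998). Cpr65Ax2 had 0.47 and 0.59 in Cy5 but 0.00 (0.001) and -0.10 on the swaps of that group, and Cpr97Eb had 0.50 and 0.79 against -0.23 and -0.17. In both genes the arrays split by dye orientation. Their fitted ratios were 0.24 (SE 0.11) and 0.22 (SE 0.15).

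A smaller set of Cpr genes could be followed through all 12 arrays. Cpr56F had fitted ratios of 0.11 (SE 0.12) at day 10, 0.17 (SE 0.12) in the ETH day 14 group and 0.19 (SE 0.12) in the food day 14 group. Cpr50Ca had 0.16 (SE 0.16), 0.16 (SE 0.15) and 0.23 (SE 0.15) in the same order. Both stayed within 2 SE of 0 in every group after turning. Without turning, Cpr56F was called at day 10 at -0.34 (limma adjusted p = 0.0352), where 30.5% of all probes were called. With print blocks also centred, Cpr50Ca was called at day 10 at -0.63 (limma adjusted p = 0.0181), where 16.6% of all probes were called. Cpr67Fa1 had -0.16 (SE 0.12), 0.07 (SE 0.11) and 0.03 (SE 0.12), and 1 of the probes for Cpr47Ee had 0.01, -0.02 and 0.00 (-0.0047). Cpr76Bd, measured on 3 arrays of the ETH day 14 group, had 0.16, 0.35 and 0.19 there, all above 0, for a fitted ratio of 0.21 (SE 0.13). Cpr97Ea lies in a run with Cpr97Eb on chromosome arm 3R. A run here may hold a gene outside the family between neighbours. In the food day 14 group Cpr97Ea had 0.48, -0.15, 0.46 and 0.13 (fitted 0.23, SE 0.14). There the X-linked Cpr12A had -0.01, 0.00 (0.001), -0.46 and -0.33 (fitted -0.20, SE 0.12). Probes for close relatives such as Cpr67Fa1 and Cpr67Fa2 may bind cDNA of each other; this was not tested.

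Ccp84Ae belongs to a run of 7 Ccp genes on chromosome arm 3R, of which 2 had a probe. At day 10 its arrays read -0.58, -0.78, -0.04 and -0.66. All 4 lay below 0, 3 of them clearly so, and the fitted ratio was -0.51 (SE 0.15, n = 4, limma adjusted p = 0.460). Without turning it was at -0.17 (limma adjusted p = 0.407), with arrays on both sides of 0, and with print blocks also centred at -0.57 (limma adjusted p = 0.0354). It had no value on any day 14 array. The only Lcp probe, for Lcp65Ac, had values on 4 arrays in all, all at day 14 and between -0.16 and 0.09.

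Of the Tweedle genes, 12 were tested at day 10, with fitted ratios from -0.20 to 0.22 and a median of -0.02, 5 of them above 0. Above 0 lay 4 of 6 in the ETH day 14 group, with a median of 0.08, and in the food day 14 group 7 of 8 with a median of 0.10. Without turning these became 2 of 6 with -0.098 and 4 of 8 with 0.0027, and at day 10 the median was -0.053. TwdlM, which opens the run of 12 Tweedle genes on 3R, was the family's highest in the ETH day 14 group, at 0.70 and 0.64 in Cy5 and 0.10 and -0.08 on the swaps. Its fitted ratio there was 0.34 (SE 0.12, n = 4, limma adjusted p = 0.998). The food day 14 arrays of TwdlM read 0.28, 0.18, 0.00 (0.0005) and -0.01 and those of day 10 -0.36, 0.28, 0.00 (0.001) and -0.05. The higher values of both day 14 groups were again those with treated RNA in Cy5. TwdlB, TwdlC, TwdlF and TwdlN were above 0 on every array measured in the food day 14 group, but none had an unadjusted p under 0.05. Of these, TwdlN had a plain mean of 0.14 ± 0.06 (SD, n = 3) but a fitted ratio of -0.069 (SE 0.33), the 1 of 8 below 0.

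The Obstructor family had only 4 probes, of which 3 were tested at day 10 and 2 in the food day 14 group. At day 10 obst-A, which in the larva organises the chitin of the new cuticle, had 0.81 and 0.36 in Cy5 and -0.88 and -0.63 on the swaps, so the fitted ratio was -0.08 (SE 0.19, n = 4). Its food day 14 values were 0.02, 0.09 and 0.10, a mean of 0.07 ± 0.04 (SD, n = 3). The fitted ratio of that group was -0.06 (SE 0.21), since the model shares 1 dye term per probe over the groups and the large day 10 difference between dyes enters it. obst-E, which in the larva sets how far the cuticle can stretch, had 0.33, -0.01, -0.997 and 0.36 at day 10 (fitted -0.08, SE 0.19) and -0.05, 0.24, 0.01 and -0.02 in the food day 14 group (fitted 0.04, SE 0.18). obst-J had -0.30 and -0.26 in Cy5 and 0.70 and 0.46 on the swaps at day 10 (fitted 0.15, SE 0.13). None of the 4 was tested in the ETH day 14 group.

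The Osiris genes are known for lying side by side on chromosome arm 3R, at the locus where flies tolerate neither 1 nor 3 copies. In the current annotation 22 of them lie there in 3 runs, and 14 of these had a probe. Within a run a gene outside the family may lie between neighbours. Fitted ratios had medians of -0.01 at day 10 (9 tested, 4 above 0), 0.08 in the ETH day 14 group (8 tested, 5 above 0) and 0.09 in the food day 14 group (10 tested, 7 above 0). Without turning they were -0.16 (2 above 0), -0.048 (4 above 0) and 0.019 (7 above 0), so the ETH day 14 median changed sign. In the food day 14 group Osi6 was at 0.60 (SE 0.13), Osi7, next in the run, at 0.22 (SE 0.11) and Osi9 at -0.06 (SE 0.23). Differences between neighbours were not tested.

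Osi6 had the lowest unadjusted p of any member in the food day 14 group. Its 3 arrays there read 1.03, 0.20 and -0.05, a mean of 0.39 ± 0.57 (SD, n = 3), so 1 array carried most of it. The fitted ratio was 0.60 (SE 0.13, limma adjusted p = 0.449), above the plain mean, since with a dye term the 1 Cy5 array weighs more than each of the 2 swaps. At day 10 Osi6 had 0.39 and 0.47 in Cy5 and -1.09 and -0.79 on the swaps, with a fitted ratio of -0.26 (SE 0.12, limma adjusted p = 0.611). Only 2 arrays of the ETH day 14 group gave it a value, -0.11 and 0.01, so it was not tested there. Osi6 passed the threshold in the food day 14 group under other settings: at 0.55 (limma adjusted p = 0.00905) when only the 4 arrays of that group were fitted, where 4.31% of all probes were called and 3 of 42 members with it. The other 2 were lower, Cht6 at -0.36 (limma adjusted p = 0.0286) and Cpr67B at -0.42 (limma adjusted p = 0.0198). Of the members only Osi6 passed with arrays scaled to a common spread (0.79, limma adjusted p = 0.0207, 1.05% of probes called), with array weights (0.58, limma adjusted p = 0.0113, 1.91% called) and over the 8 arrays of day 14 (0.55, limma adjusted p = 0.0419, 0.642% called). Without turning it was at 0.32 (limma adjusted p = 0.695), and at 0.22 (limma adjusted p = 0.811) with print blocks also centred. Replicate 1 of that group had no value for it.

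Osi7, the neighbour of Osi6, had 0.57, 0.27, -0.04 and 0.09 in the food day 14 group, for a fitted ratio of 0.22 (SE 0.11, n = 4, limma adjusted p = 0.773). With ETH at day 14 all 4 of its arrays lay above 0, between 0.04 and 0.36, and at day 10 all 3 lay below 0, between -0.12 and -0.03. Osi9 had 0.87, -0.53, 0.58 and 0.82 at day 10 (fitted 0.44, SE 0.21, limma adjusted p = 0.611), the highest fitted ratio of all members in that group, with 1 array on the other side of 0. Osi14 had 0.90 and 0.64 in Cy5 and -0.12 on its 1 swap at day 10 (fitted 0.33, SE 0.17). Osi20, at the end of the third run, had 0.74, 0.19 and 0.24 in the ETH day 14 group (fitted 0.37, SE 0.16, n = 3, limma adjusted p = 0.998), and Osi24 had 0.64, 0.02, 0.28 and 0.06 (fitted 0.25, SE 0.16). For both, all arrays with a value lay above 0 and replicate 1 was the highest. With print blocks centred on their medians, the plain mean fell from 0.39 to 0.25 for Osi20 and from 0.25 to 0.13 for Osi24. On replicate 1 of this group the print block accounted for 32% of the variance between probes. Osi17 was measured on all 12 arrays, with fitted ratios of 0.22, 0.14 and 0.03 and SEs of 0.15 in each group.

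**Figure D3:**
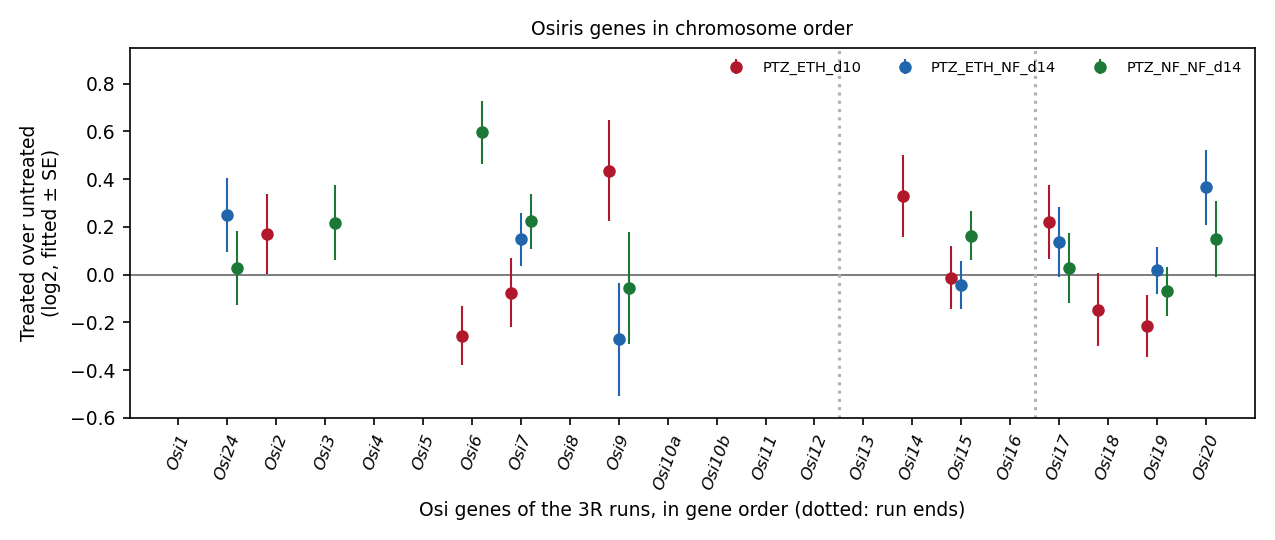
Fitted log2 ratio of treated over untreated flies with its SE (vertical axis) for the 22 Osiris genes of chromosome arm 3R in gene order (horizontal axis), coloured by group; dotted lines mark the ends of the 3 runs, and genes with no point had no probe or too few values. Osi6 lies at -0.26 at day 10 and at 0.60 in the food day 14 group, and the fitted values of its neighbours lie on both sides of 0.

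The chitinase family held the lowest fitted ratio of all members. Cht8 had -0.97 and -0.39 in Cy5 and -1.28 on 1 swap at day 10, a mean of -0.88 ± 0.46 (SD, n = 3). All 3 arrays lay below 0, and the fitted ratio was -0.98 (SE 0.19, limma adjusted p = 0.266). Without turning it was 0.30 (limma adjusted p = 0.249). The 2 spots of Cht8 differed by a median of 0.82 and by up to 1.41, against a median of 0.195 over all members. Cht8 had too few values at day 14 to be tested. Cht2 had -0.91, -0.68 and 0.01 at day 10 (fitted -0.39, SE 0.17, limma adjusted p = 0.608). Over the 11 chitinase probes tested, these included, the day 10 median was 0.07 and 7 lay above 0, 3 of them probes for Cht10. The sign of that median was not stable: it was -0.22 when the probes for 1 gene were averaged, -0.18 when only first spots were used and -0.18 without replicate 4. Without turning it was 0.019, with 6 of 11 above 0.

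Cht6 could be followed into day 14. It had -0.21, -0.21 and -0.25 at day 10, then 0.63, -0.36, -0.32 and -0.32 in the ETH day 14 group, and -0.17, 0.21, -0.81 and -0.65 in the food day 14 group. It was thus below 0 on all arrays at day 10, on 3 of 4 in the ETH day 14 group and on 3 of 4 in the food day 14 group. The fitted ratio of the last was -0.36 (SE 0.15, n = 4, limma adjusted p = 0.726) and that of the ETH day 14 group -0.09 (SE 0.15). Without turning these were 0.37 (limma adjusted p = 0.340) and 0.23 (limma adjusted p = 0.490). With print blocks centred, the plain mean of Cht6 in the ETH day 14 group went from -0.09 to -0.24. Cht11 had 0.21, -0.16 and 0.10 in the ETH day 14 group (fitted 0.02, SE 0.15). For the food day 14 group 1 probe for Cht12 had 0.38, -0.13, 0.41 and 0.01 (fitted 0.17, SE 0.18) and 1 for Cht10 had -0.11, 0.10, 0.01 and -0.03 (fitted -0.01, SE 0.20). At day 10 all 3 probes for Cht10 could be tested, with fitted ratios of 0.08 (SE 0.17), 0.30 (SE 0.25) and 0.10 (SE 0.22), which differed from each other by less than the SE of the highest. Their plain means, each of 3 arrays, were 0.05, 0.40 and -0.13, so the last lay below 0. The 2 spots of these probes differed by medians of 1.23, 0.21 and 0.62 in the same order, against 0.195 over all members. Without turning the same probes stood apart, at 0.085, 0.75 (limma adjusted p = 0.0129) and -0.69.

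**Figure D4:**
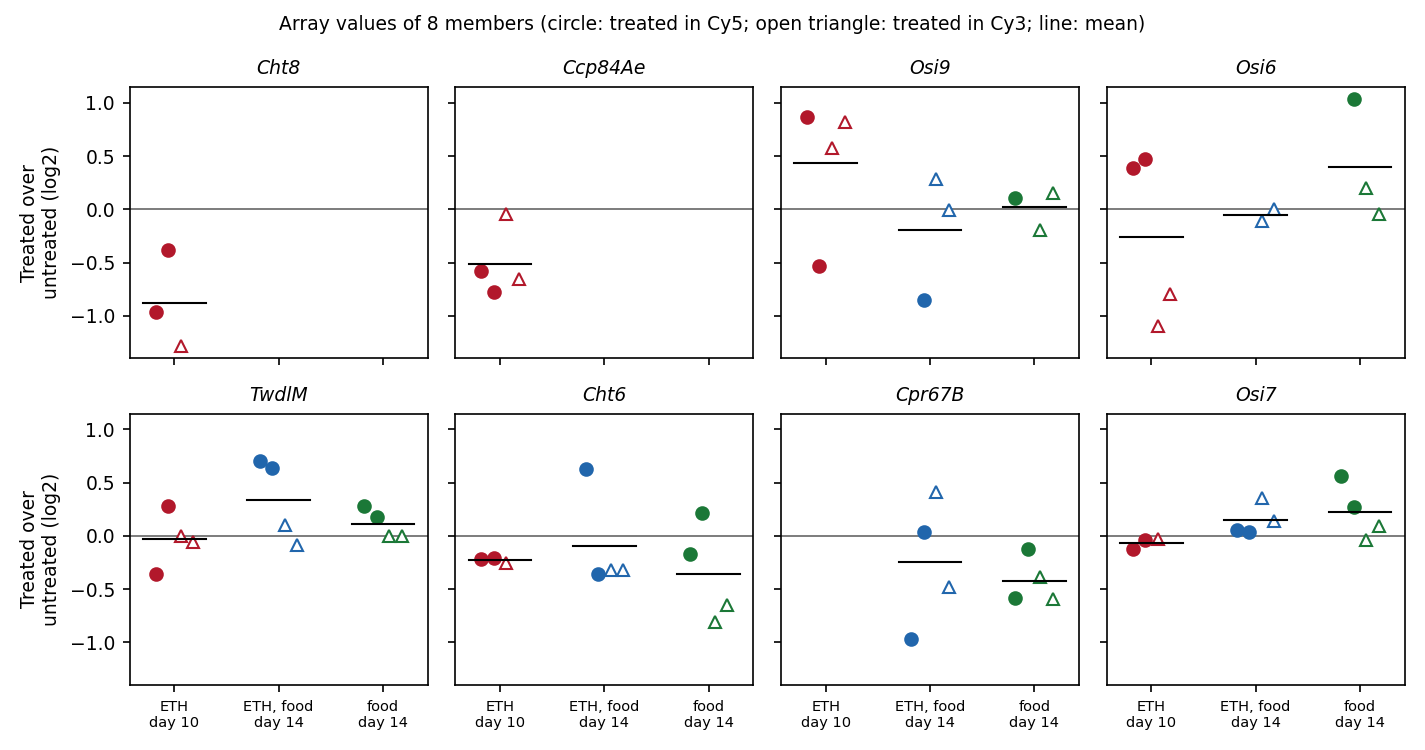
Log2 ratio of treated over untreated flies on each array (vertical axis) for 8 members in the 3 groups (horizontal axis); filled circles have the treated RNA in Cy5, open triangles are dye swaps, and the line is the plain mean. Cht8 and Ccp84Ae are below 0 on every day 10 array, Osi6 splits by dye orientation at day 10, and its food day 14 mean of 0.39 rests on 1 high array at 1.03.

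The groups were also set against each other. Between the day 14 groups, which differ by the 3 days on ETH, 26 members could be tested and 0 were called, as were 0% of 4766 probes, by limma; at an unadjusted p under 0.05 there were 0 members and 1.64% of all probes. The median difference, ETH minus food, was 0.05 with 15 of 26 above 0, against 0.03 and 57.7% over all probes. Cpr49Ac was split between them: its 3 arrays read -0.06, -0.17 and -0.10 with ETH and its 4 arrays 0.00 (0.001), 0.23, 0.06 and 0.18 with food only. The groups did not overlap, and the fitted difference was -0.23 (SE 0.19, limma adjusted p = 1.00). Osi15 had 0.26, 0.16, 0.08 and 0.15 with food only, and -0.16, 0.09, 0.09 and -0.20 with ETH, for a difference of -0.21 (SE 0.14). Cpr64Aa differed by 0.24 (SE 0.17), TwdlM by 0.23 (SE 0.17) and Cht6 by 0.27 (SE 0.21), all with an adjusted p of 1.00 in the limma fit.

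Between day 14 and day 10 of the flies given ETH, 22 members could be tested and 0 were called, against 0.0449% of 4451 probes. At an unadjusted p under 0.05 there was 1 member (4.5%), against 5.77% of all probes, and 12 of 22 had a difference above 0, against 47.1%. That member was Osi9, with 0.87, -0.53, 0.58 and 0.82 at day 10 and -0.85, 0.28 and 0.00 (-0.0027) at day 14, a difference of -0.71 (SE 0.31, limma adjusted p = 0.811). Its arrays overlapped between the days. TwdlM differed by 0.37 (SE 0.18), Cpr97Eb by 0.36 (SE 0.21), Osi19 by 0.23 (SE 0.16) and Cpr67Fa1 by 0.23 (SE 0.17), all higher at day 14 and none past the threshold.

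Without turning the dye swaps the picture at day 10 was another. There 19 of 59 members (32.2%) were called, against 30.5% of all probes, so the members' share was near that of the whole array. Of them 9 were higher, where 18.7% of all probes were called higher, and 10 lower, where 11.8% were. The called members were spread over the families and took both signs in each of them: Cpr 3 higher and 4 lower, Twdl 2 and 2, Cht 2 and 2, Osi 1 and 1, obst 1 and 1. The median size of a member's ratio was 0.30 in this reading and 0.14 after turning, and over all probes it was 0.28 and 0.13. On the day 14 arrays no member was called without turning, with 0.331% of probes called in the ETH day 14 group and 0.204% in the food day 14 group.

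TwdlT and TwdlL, 2 Tweedle cuticle proteins, had the largest ratios among the calls of that reading. TwdlT had 0.81 and 0.43 in Cy5 and -1.10 and -0.93 on the turned swaps, hence 0.82 (SE 0.13, limma adjusted p = 0.00697) without turning and -0.20 with it. TwdlL had 0.78, 1.19, -0.66 and -0.52, hence 0.79 and 0.20. For both, the swaps lay on the other side of 0 from the Cy5 arrays. The same held for Cht9 (0.76 without turning), Cpr47Eb (0.73), Cpr11B (0.69), Osi6 (0.69) and obst-A (0.67). Cht5, an enzyme that breaks down old cuticle at the moult, was among the lower ones, with -0.49 and -0.51 in Cy5 and 0.66 on 1 turned swap, hence -0.58 without turning and 0.08 with it. Cpr62Bb stood at -0.49 and TwdlD, the founding Tweedle gene, at -0.40 without turning. With each of the array's 48 print blocks also centred, 12 members were called, against 16.6% of all probes, and 6 of them were also among the 19. The largest turned ratio among the 19 was 0.33 in size, and 14 of the 19 had opposite signs in the readings.

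**Figure D5:**
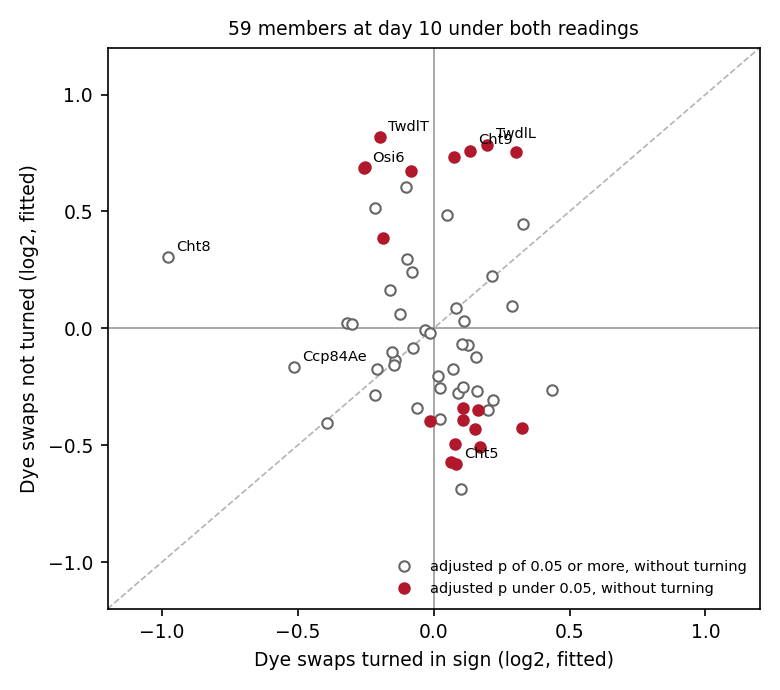
Fitted log2 ratio of each of the 59 members tested at day 10 with the dye swaps turned in sign (horizontal axis) and not turned (vertical axis); filled points had an adjusted p under 0.05 without turning and the dashed line marks equal values. The 19 filled points lie between 0.34 and 0.82 in size on the vertical axis and within 0.33 of 0 on the horizontal axis, while Cht8 lies at -0.98 turned and 0.30 not turned.

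For the difference between day 14 and day 10 of the ETH groups, 2 of 22 members were called without turning, against 9.66% of all probes. Cpr47Eb differed by -0.65 (limma adjusted p = 0.0197) and Cpr97Eb by 0.56 (limma adjusted p = 0.0445). With print blocks centred as well, neither of these was called, and 2 others were, against 8.22% of all probes: Cpr50Ca at 0.73 (limma adjusted p = 0.0324) and 1 of the probes for Cpr47Ee at 0.61 (limma adjusted p = 0.0451). Between the day 14 groups no member and 0% of probes were called in this reading.

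Other genes of cuticle making were looked at beside the families: chitin synthesis and deacetylation, chitinase-like growth factors, further cuticle proteins, and tanning and pigment enzymes. Of 55 listed genes 32 had probes, 39 in all, and none was called in any group in the main fit. With print blocks centred, 1 of these probes was called at day 10. Ratios above 0 were seen for 11 of 25 probes tested at day 10, 8 of 21 in the ETH day 14 group and 14 of 23 in the food day 14 group, with medians of -0.02, -0.04 and 0.02. The nearest at day 10 was yellow-h, of the yellow family of secreted proteins, with -1.12, -0.68, -0.13 and -0.26, all below 0 (fitted -0.55, SE 0.13, limma adjusted p = 0.175). The gene ple encodes tyrosine hydroxylase, which makes the DOPA used both in tanning and for dopamine. 1 of its probes had -1.38, 0.07 and 0.26 at day 10 (fitted -0.60, SE 0.16, limma adjusted p = 0.393), so a single array carried it. Vajk1 had a fitted ratio of -0.35 (SE 0.15) there. With ETH at day 14 yellow-d2 was at -0.26 (SE 0.13), t, which frees dopamine from its beta-alanine conjugate, at -0.53 (SE 0.27), and 1 probe for Vajk3 at -0.18 (SE 0.15). With food only at day 14 y, needed for black pigment, was below 0 on all 4 arrays (fitted -0.28, SE 0.13, limma adjusted p = 0.759), as was 1 probe for Ddc, the enzyme that makes dopamine (fitted -0.27, SE 0.16). The other tested Ddc probe was above 0 on all 4 arrays (fitted 0.095, SE 0.0999), so the probes of this gene disagreed in sign. The gene dsx-c73A was at 0.15 (SE 0.10).

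Without turning, 5 of the 25 pathway probes were called at day 10: Idgf5 at 0.60, Idgf3 at 0.40 and verm at 0.45 were higher, and ple at -0.77 and Gasp at -0.46 were lower. Idgf3 and Idgf5 encode chitinase-like growth factors, verm a chitin deacetylase and Gasp a chitin-binding protein of the air tubes. The share of pathway probes called in that reading stood beside 30.5% of all probes. One probe for Idgf6, a further chitinase-like factor, was called at 0.59 (limma adjusted p = 0.0218) in the ETH day 14 group and 0.55 (limma adjusted p = 0.0439) in the food day 14 group without turning.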

How the data were processed

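The authors deposited log2 ratios between the 2 channels; spots were quantified in GenePix Pro 6.0 and ratios normalized in Acuity 4.0, leaving out spots under 100 intensity units, per the series' design text. The scale was taken from the values. Each of 13824 probes has 2 spots, which were averaged; 5 values at the ceiling of 16.61 were set to missing, dye swaps were turned in sign and each array was centred on its median. Symbols came from the platform annotation, updated by gene ID through RefSeq (Release 6 plus ISO1 MT), used for names and gene order only.

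Group means were fitted over all 12 arrays in limma 3.58.1 (R 4.3.3) with 1 dye term per probe, tested 2-sided against 0 for probes with at least 3 arrays per group, and adjusted over all probes tested. The untreated RNA is the other channel of each array; whether untreated pools were shared between groups is not stated. Named members were those past the threshold, the 8 lowest unadjusted p values per group (5 per difference between groups), Osi6, and tested members of families with at most 3. Of the pathway genes, the 3 lowest per group were named. Members, lists and alternatives were chosen with earlier results of these data known, 1 alternative (the 8 arrays of day 14) after seeing the files. The fit was tested on simulated data. The number of arrays limits the precision, and sequences of the probes were not used here.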

Additional observations from a re-analysis of the deposited data

Results flagged for a closer look

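In all, 90 sets of 4 array values were checked, those of the members and the array medians of all members in each group. Of these, 2 held an array far from the other 3 by Dixon's criterion, where chance alone gives about 1 in 20. For Cpr67Fa1 in the food day 14 group, replicate 2 read -0.07 and the others 0.06 to 0.07, so the gap is large only beside a very narrow spread. For the chitinase gene Cht6 in the ETH day 14 group, replicate 1 read 0.63 and the other arrays -0.36 to -0.32. The print block of Cht6 stood high on that array. Cht2, in the same block and with replicate 1 as its only value in the group, read 1.47 there, and 0.94 with the block centred. The cause was not tested in either case.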

How the results depend on the processing

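With the dye swaps not turned, 19 members were called at day 10 and 2 in the difference between day 14 and day 10 of the ETH groups, and with print blocks also centred 12 and 2. Pathway probes called were 5 at day 10, 1 in each day 14 group and 2 in that difference without turning, and 6, 1, 1 and 1 with print blocks also centred. The median of all members became -0.10 at day 10, 0.010 in the food day 14 group and 0.20 in the ETH difference between the days without turning, and -0.12, -0.014 and 0.25 with print blocks also centred. In the food day 14 group 1 member was called with arrays scaled, 1 with array weights, 3 with only that group's arrays and 1 with the 8 arrays of day 14. With turned swaps and print blocks centred, 1 pathway probe was called at day 10. The share of all probes called in that setting is not given here, so this count cannot be set against it. Without centring the medians were -0.049 in the ETH day 14 group, -0.019 in the food day 14 group and -0.21 for ETH day 14 minus day 10. The food day 14 median was 0.080 with a dye term per group, with only that group's arrays and with the 8 arrays of day 14.

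Leaving out each array in turn called no member and no pathway probe in any comparison. Members with values on exactly 3 arrays (19 at day 10, 12 in the ETH day 14 group and 13 in the food day 14 group, Osi6 and Cht8 among them) were not tested when 1 of those arrays was left out, so for them this says nothing. The median of all members then ranged from -0.013 to 0.095 at day 10, from 0.031 to 0.15 in the ETH day 14 group, from 0.026 to 0.066 in the food day 14 group, from -0.022 to 0.155 between the day 14 groups and from -0.065 to 0.17 between the days with ETH. The highest value of the ETH day 14 group and of the difference between the day 14 groups came without replicate 4 of the ETH day 14 group. Ratios that changed sign ranged from -0.29 to 0.085 for obst-A and from -0.31 to 0.23 for obst-E at day 10, from -0.28 to 0.097 for Cht6 in the ETH day 14 group, and in the food day 14 group from -0.0295 to 0.34 for Cht12, from -0.14 to 0.15 for Cht10 and from -0.0014 to 0.14 for obst-E.

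Of 824 values of named members under the alternatives, 757 kept their sign and 67 did not, 39 of these in the settings without turned swaps. Without turning, the signs changed at day 10 for Cht8 (0.30), Cpr72Ec (-0.43), Osi9 (-0.26), Osi6 (0.69), obst-J (-0.43), obst-A (0.67) and obst-E (0.24). In the ETH day 14 group they changed for Cpr76Bd (-0.081), Cpr56F (-0.18) and Cht6 (0.23). In the food day 14 group they changed for Cht6 (0.37), Cpr67B (0.070), Cpr12A (0.20), Cpr97Ea (-0.061), Cpr56F (-0.16), obst-A (0.0078), Cht12 (-0.042) and Cht10 (0.0024). Between groups they changed for Cht6 (-0.15) and Cpr49Ac (0.094) at day 14, and for Cpr67Fa1 (-0.083) between the days.

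With print blocks also centred the values were 0.43 for Cht8, -0.090 for Cpr72Ec, -0.12 for Osi9, 0.30 for Osi6, -0.33 for obst-J and 0.24 for obst-A at day 10. They were -0.0103 for Cpr76Bd, -0.18 for Cpr56F and 0.27 for Cht6 in the ETH day 14 group, and 0.45 for Cht6, 0.056 for Cpr67B, 0.18 for Cpr12A, -0.058 for Cpr97Ea, -0.18 for Cpr56F, -0.0102 for obst-E and -0.0003 for Cht12 in the food day 14 group. Between the day 14 groups they were -0.19 for Cht6 and 0.18 for Cpr49Ac.

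The other changes of sign were of ratios near 0, except for Cpr67Fa1 between the days. Its difference went from 0.23 in the main fit to -0.018 without centring. Without centring obst-A had 0.0695 and obst-E 0.0755 at day 10, Cht11 -0.060, and obst-E -0.013 in the food day 14 group. Cht11 was at -0.0897 with print blocks centred, -0.031 with array weights and -0.033 with first spots only. In the food day 14 group obst-A was at 0.0099 with print blocks centred, 0.023 with arrays scaled, 0.071 with no dye term, 0.061 with array weights, and 0.0795 with a dye term per group, with only that group's arrays and with the day 14 arrays. Cht10 was at 0.0069 with print blocks centred, 0.027 with array weights, 0.046 with second spots only and 0.058 with probes averaged, and obst-E at -0.0012 with first spots only. The cause of these changes was not tested.

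Whether replicate numbers shared between groups pair the samples could not be decided. With group means subtracted, same-numbered arrays of different groups correlated between -0.11 and 0.55 across probes, 9 of 12 pairs over 0.1. Arrays of other numbers but the same dye correlated between -0.04 and 0.41, so the ranges overlapped. Between the day 14 groups the same ranges were 0.21 to 0.55 and 0.07 to 0.41. In both other groups, 4 of 12 arrays correlated best with their own number. With a replicate block in place of the dye term 0 members were called in each comparison, and only Cht11 changed sign among the named members, to -0.062. With 4 arrays a group and an adjustment over all probes tested, ratios of the size seen for most members could not be told from 0.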
